A study of Homo sapiens with 12 samples.

Results

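The small heat shock proteins and BAG co-chaperones were described through 9 genes, taken by gene symbol from a table of 58676 genes: the small heat shock genes HSPB1, CRYAB and HSPB8, the gene HSPB11 that carries the family name, and BAG1, BAG2, BAG3, BAG4 and BAG5. RNA was sequenced from 12 libraries of A549, an established human lung carcinoma line. A control line (labelled Control1) was compared with a pair of NFE2L1 knockout lines, KO1 and KO2, and each line received either DMSO as vehicle or bortezomib, a proteasome inhibitor, for 4 h (dose 200 nM). The 6 groups hold 2 libraries each. NFE2L1 encodes a transcription factor that is known to restore proteasome gene expression in cells whose proteasomes are blocked. The labels give neither how the lines were made nor whether each is 1 clone, and they do not say whether the libraries of a group came from separate cultures, so p-values measure only the spread between these libraries.

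Small heat shock proteins share an alpha-crystallin domain, assemble into oligomers and hold unfolding proteins in a soluble state without using ATP. BAG proteins bind the ATPase domain of HSP70 through the BAG domain and speed the release of nucleotide, and so of the client. BAG3 and HSPB8 act together: with HSP70 and an E3 ligase they pass misfolded clients to the autophagy receptor, a route known to be used more when proteasomes are blocked.

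Levels are given in FPKM, that is, fragments scaled to gene length and to library depth. A single length per gene was used, from 1634 bases for HSPB1 to 7114 for BAG1 among the members. Comparisons of level between genes rest on these lengths, and whether they match the transcripts present was not tested. Reads assigned to genes ran from 13211608 to 23819258 per library. NFE2L1 itself measured 72.7 and 151 FPKM in the control line under vehicle and 109 and 189 under bortezomib. The KO1 values were 8.45 and 14.8 under vehicle and 27.0 and 35.8 under bortezomib, and the KO2 values were 18.6, 33.6, 36.7 and 50.8. Every knockout library was below every control library, and transcript remained in each line. One library of each group is labelled R2. The other carries R1 in the knockout lines and no suffix in the control line, and is called the R1-class library here. The R2 libraries stood apart: mitochondrial genes took 12.3 to 19.3% of their reads against 5.44 to 6.8% in the R1-class libraries. The 8 members that passed the filter described below were lower in R2 than in its partner in 48 of 48 comparisons, with ratios from 0.244 to 0.82, while 55.8 to 65.8% of the 12194 genes that passed were lower in R2. What sets the R2 libraries apart was not tested. A549 keratins KRT8, KRT18 and KRT7 were at 112 FPKM or more in every library, whereas the epithelial markers CDH1 and EPCAM were low, at 1.25 to 10.6 FPKM. Of 6 markers of other cell types, MYOD1 was listed at 0 throughout, PTPRC, PECAM1, DES and COL3A1 stayed at or below 0.225 FPKM, and the fibroblast collagen COL1A1 ranged from 1.42 to 23.3 FPKM. The summed level of these markers was 1.6 to 5.41 FPKM in the vehicle libraries and 6.17 to 23.5 FPKM in the bortezomib libraries, and its part in the results was not tested. In bulk RNA, fewer cells expressing a gene and less RNA of it per cell cannot be told apart.

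Heat shock factor 1 (HSF1) binds repeats of nGAAn in alternating orientation, and promoters of chaperone genes are its best known targets. RefSeq promoter windows of GRCh38.p14 were matched for 7 of the 9 genes (HSPB11 under its symbol IFT25); CRYAB and BAG4 were not matched. The 250 bases before the annotated start are shown for the 4 of them called higher with bortezomib in the tests below, to set the sequence beside the response. They lie at chr7:76302423-76302672 (plus strand) for HSPB1, chr12:119178681-119178930 (plus strand) for HSPB8, chr6:57172076-57172325 (plus strand) for BAG2 and chr10:119651130-119651379 (plus strand) for BAG3. The starts used here are those of RefSeq. The gene positions given below begin inside the stretch for HSPB1 and BAG3, and before it for HSPB8. Capitals mark a head-to-head pair of heat shock units, GAANNTTC, and the sequences read 5′ to 3′.

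HSPB1: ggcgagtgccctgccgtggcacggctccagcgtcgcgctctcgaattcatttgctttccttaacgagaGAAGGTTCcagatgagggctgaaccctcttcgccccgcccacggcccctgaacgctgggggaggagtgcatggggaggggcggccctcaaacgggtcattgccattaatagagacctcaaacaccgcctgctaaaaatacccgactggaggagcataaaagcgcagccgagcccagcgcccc
HSPB8: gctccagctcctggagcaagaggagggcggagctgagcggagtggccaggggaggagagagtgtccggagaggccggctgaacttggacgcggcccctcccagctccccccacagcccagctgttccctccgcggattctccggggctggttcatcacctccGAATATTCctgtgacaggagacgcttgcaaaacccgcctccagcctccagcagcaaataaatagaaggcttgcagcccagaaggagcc
BAG2: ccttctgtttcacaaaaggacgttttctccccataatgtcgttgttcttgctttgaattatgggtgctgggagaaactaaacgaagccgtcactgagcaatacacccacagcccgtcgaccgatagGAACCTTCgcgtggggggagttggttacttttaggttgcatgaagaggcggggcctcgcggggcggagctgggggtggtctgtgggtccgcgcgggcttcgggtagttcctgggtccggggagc
BAG3: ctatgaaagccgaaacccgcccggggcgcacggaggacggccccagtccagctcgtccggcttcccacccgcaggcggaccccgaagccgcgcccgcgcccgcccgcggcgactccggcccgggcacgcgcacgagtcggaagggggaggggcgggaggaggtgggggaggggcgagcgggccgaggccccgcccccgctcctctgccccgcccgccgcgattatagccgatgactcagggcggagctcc

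The pair lay at positions -182 to -175 from the start in HSPB1, -88 to -81 in HSPB8 and -124 to -117 in BAG2, and HSPB8 held a further match at 4 to 11 after its start. The windows of BAG3, BAG1, BAG5 and HSPB11 held none. Of 34943 RefSeq windows of the same 300 bases, 6.79% held GAANNTTC. On both strands 5 further motifs were searched: the tail-to-tail pair TTCNNGAA, which can overlap the first (7.74% of windows), the run of 3 alternating units built from both (0.489%), the antioxidant response core TGACNNNGC (13.3%), the C/EBP-ATF core TGATGNAA (3.62%) and CCAAT (34.6%). Of these, only the antioxidant core was matched in a member, at positions 25 to 33 and 41 to 49 after the start of HSPB1. BAG3, which had the largest rise of the 8 tested members on the log2(FPKM + 1) scale, therefore held none of the 6 motifs in its window, which says only that these letters are not in it.

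Levels under vehicle spanned from near 0 to over 200 FPKM. By the median of the 6 vehicle libraries the order was HSPB1 (114 FPKM), BAG3 (37.0), BAG5 (12.5), BAG1 (6.16), BAG4 (5.1), BAG2 (4.01), HSPB11 (3.62), HSPB8 (1.87) and CRYAB (0.0543). Within libraries, HSPB1 was above BAG3, BAG3 above BAG5 and BAG5 above BAG1 in 6 of 6. BAG1 and BAG4 were in that order in 5 of 6 libraries, and BAG2 and HSPB11 in 3 of 6, so those neighbours were not separated. Under bortezomib the order became HSPB1 (522 FPKM), BAG3 (316), BAG5 (13.6), HSPB8 (11.6), BAG1 (6.38), BAG2 (5.60), BAG4 (4.63), HSPB11 (3.01) and CRYAB (1.11). HSPB8 thus moved from the eighth place to the fourth, and it was below BAG5 in 4 of 6 libraries.

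**Figure D1:**
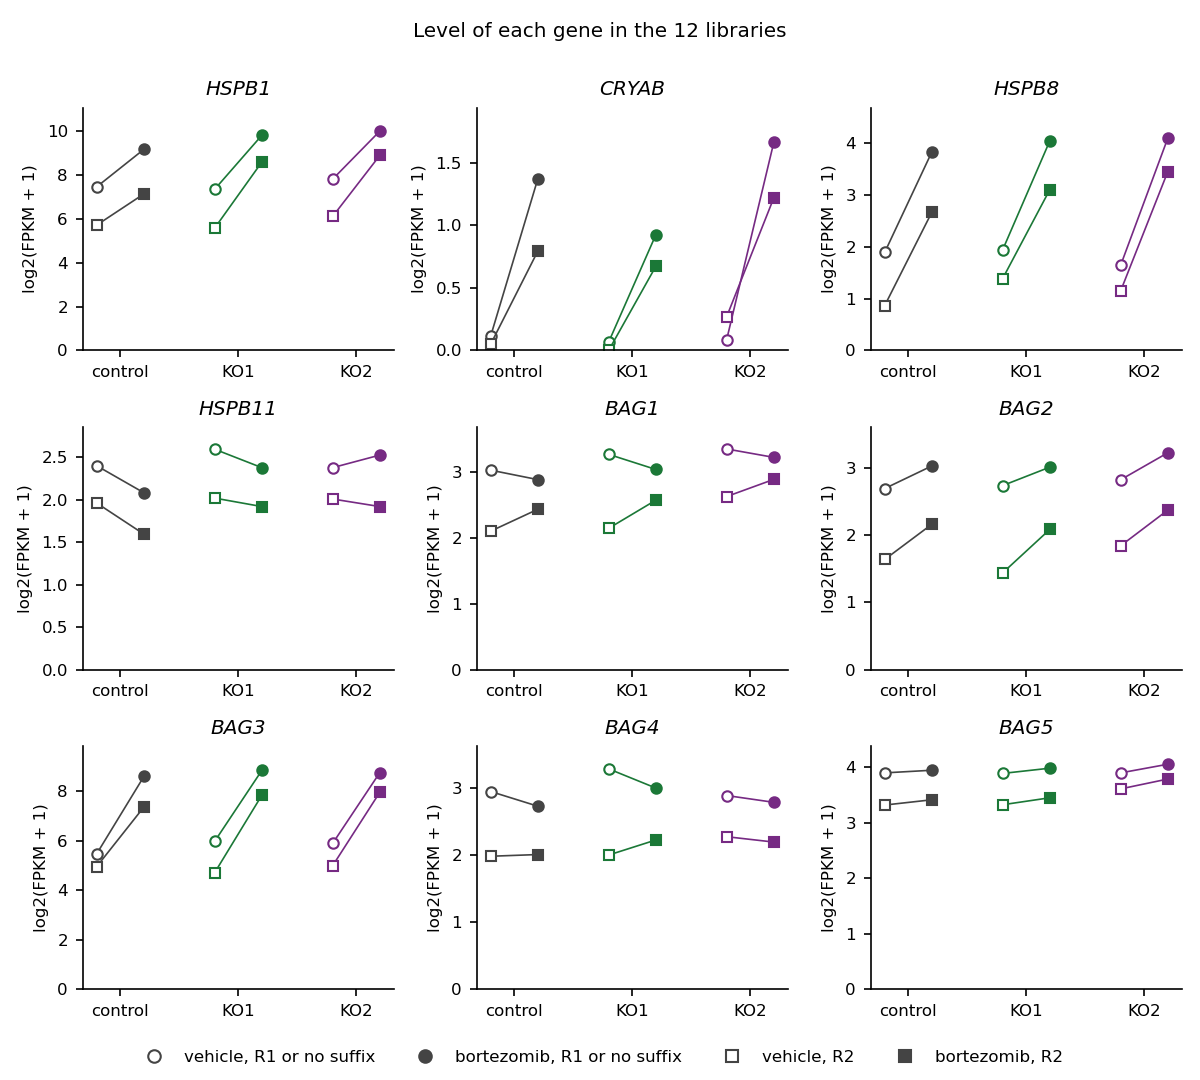
Level of each of the 9 genes in each library, as log2(FPKM + 1) on the y axis, with the 3 lines along the x axis. Open symbols are vehicle, filled symbols bortezomib, circles the R1-class and squares the R2 libraries, and a line joins the 2 libraries of 1 line and suffix class. The joined lines climb steeply for HSPB1, CRYAB, HSPB8 and BAG3, and each square lies below its circle except for CRYAB in KO2 under vehicle (0.205 against 0.0612 FPKM).

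The first question was how these genes responded to bortezomib. HSPB1, HSPB8 and BAG3 rose when the 3 lines were averaged, BAG2 rose by a smaller amount once the suffix classes were matched, and BAG1, BAG4, BAG5 and HSPB11 did not pass in either test. Values were compared as log2(FPKM + 1) with limma over all 12194 genes with a mean of at least 1 FPKM, and p-values were adjusted by Benjamini and Hochberg over those genes; a gene was called below 0.05. This scale understates the change of low genes. Of the 9 members 8 passed the filter and were tested, and CRYAB did not. Averaged over the lines, 3 of the 8 were called higher and 0 lower, beside 4.85% of all tested genes called higher. Because libraries of like suffix deviated together, the same fit was also run with the suffix as a block. That fit called 4 of 8 higher, beside 27% of all genes. The median change was 0.28 (log2) over the 8 members and -0.01 over all tested genes.

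BAG3, the HSP70 co-chaperone that links HSP70 to small heat shock proteins and to autophagy (chromosome 10, 119651370 to 119677819, plus strand, GRCh38), had the largest change of the 8 tested members on the log2(FPKM + 1) scale. In the control line it measured 43.2 and 29.9 FPKM under vehicle and 384 and 163 under bortezomib, R1-class library first. In KO1 the values were 61.7 and 25.1 against 456 and 227, and in KO2 58.2 and 30.7 against 429 and 247. The lowest bortezomib library (163) lay above the highest vehicle library (61.7), so the treatments did not overlap. The ratio within a line and suffix class ran from 5.45 to 9.04. The mean change over lines was 2.89 ± 0.38 (log2, SE), with a limma adjusted p of 0.00214, and 4.61e-07 with the block. Of all 12194 genes it had the tenth largest rise, at rank 10.

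HSPB1 (HSP27), an abundant and widely expressed small heat shock protein that also stabilises actin filaments (chromosome 7, 76302544 to 76304295, plus strand), was the highest of the 9 genes in 11 of 12 libraries. In the control line it measured 174 and 51.3 FPKM under vehicle and 571 and 139 under bortezomib. In KO1 the values were 161 and 46.6 against 891 and 382, and in KO2 222 and 67.7 against 1018 and 472. The treatments overlapped only through the suffix classes: the R2 control library under bortezomib (139) was below the R1-class vehicle libraries (161 to 222). Within a line and suffix class all 6 ratios were above 1, from 2.71 in the control line to 8.20 in KO1. The mean change was 2.26 ± 0.57 (log2, SE), with a limma adjusted p of 0.0326, and 1.64e-06 with the block, at rank 28 of all genes. Without the block this call was lost in 7 of 12 fits that left out 1 library, with adjusted p from 0.0537 to 0.0926, and in the fit without the filter on low values (0.0903).

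HSPB8 (HSP22), the small heat shock protein that forms a complex with BAG3 (chromosome 12, 119178642 to 119221131, plus strand), started from a low level. In the control line it measured 2.72 and 0.823 FPKM under vehicle and 13.3 and 5.38 under bortezomib. In KO1 the values were 2.85 and 1.62 against 15.6 and 7.63, and in KO2 2.13 and 1.22 against 16.2 and 9.99. Each bortezomib library lay above each vehicle library. Ratios within a line and suffix class ran from 4.71 to 8.21. The mean change was 2.06 ± 0.30 (log2, SE), with a limma adjusted p of 0.00316, and 5.55e-07 with the block, at rank 36.

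CRYAB (alpha-B-crystallin), the small heat shock protein of lens and muscle (chromosome 11, 111908565 to 111923722, minus strand), was near 0 under vehicle. In the control line 6 and 2 reads under vehicle stood against 68 and 42 under bortezomib. In KO1 there were 2 and 0 against 36 and 34, and in KO2 4 and 12 against 129 and 89. In FPKM the vehicle libraries ran from 0 to 0.205 and the bortezomib libraries from 0.594 to 2.17, without overlap, and an exact two-sided permutation test of 6 libraries against 6 gave p = 0.00216, the smallest it can give, or 0.00541 adjusted over the 5 such tests made; the exact paired permutation test gave 0.0312, adjusted 0.0391. Per assigned read the pooled ratio was 17.8 in the control line (95% exact conditional interval 8.71 to 42.2), 35.4 in KO1 (9.44 to 298.0) and 13.3 in KO2 (8.03 to 23.8); these intervals cover counting error only. They overlap between the lines, and 2 reads carry the KO1 ratio. CRYAB shares its locus with HSPB2, HSPB2-C11orf52 and C11orf52 on the opposite strand, all listed at 0 in the 12 libraries. The counting is not stated to use strand, nor how reads in an overlap were treated. A value of 0 there need not mean that no transcript was present.

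BAG2, a BAG protein that inhibits the E3 ligase CHIP (chromosome 6, 57172326 to 57189833, plus strand), showed a smaller change. In the control line it measured 5.45 and 2.11 FPKM under vehicle and 7.14 and 3.47 under bortezomib. In KO1 the values were 5.65 and 1.71 against 7.04 and 3.24, and in KO2 6.06 and 2.58 against 8.32 and 4.17. The treatments overlapped, yet within a line and suffix class the bortezomib library was the higher in 6 of 6, by ratios of 1.25 to 1.90. BAG5, described below, was also higher in each pair. The share of all genes that were higher in each pair was not counted. The mean change was 0.45 ± 0.35 (log2, SE) with a limma adjusted p of 0.46, and 0.45 ± 0.08 with 0.00179 under the block. BAG2 overlaps RAB23 and an antisense gene of ZNF451 on the opposite strand, and the counting is not stated to use strand.

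The other members stayed within narrow bounds. BAG1, which binds HSP70 and BCL2 (chromosome 9, 33247820 to 33264761, minus strand, as the table gives it; GENCODE 29 gives another position), ranged from 3.29 to 9.17 FPKM and changed by 0.09 (log2; limma adjusted p 0.878, or 0.551 with the block). Its suffix classes moved apart: the ratio of bortezomib to vehicle was 0.837 to 0.906 in the 3 R1-class pairs and 1.24 to 1.44 in the 3 R2 pairs, a difference that was not tested. BAG4, known as the silencer of death domains for its binding to the TNF receptor TNFRSF1A, lies on chromosome 8. It ranged from 2.94 to 8.70 FPKM and changed by -0.07 (adjusted p 0.913, or 0.581 with the block), and LSM1 overlaps it on the opposite strand. BAG5, which carries several BAG domains (chromosome 14, 103556544 to 103562831, minus strand), ranged from 8.97 to 15.6 FPKM and changed by 0.11 (limma adjusted p 0.795, or 0.255 with the block). Its bortezomib library was the higher in each line and suffix class, by ratios of 1.03 to 1.14. KLC1 overlaps BAG5 on the opposite strand. HSPB11, also named IFT25, is a subunit of the intraflagellar transport complex B of cilia (chromosome 1, 53916574 to 53945929, minus strand). It ranged from 2.02 to 5.03 FPKM and changed by -0.16 (0.685, or 0.108).

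**Figure D2:**
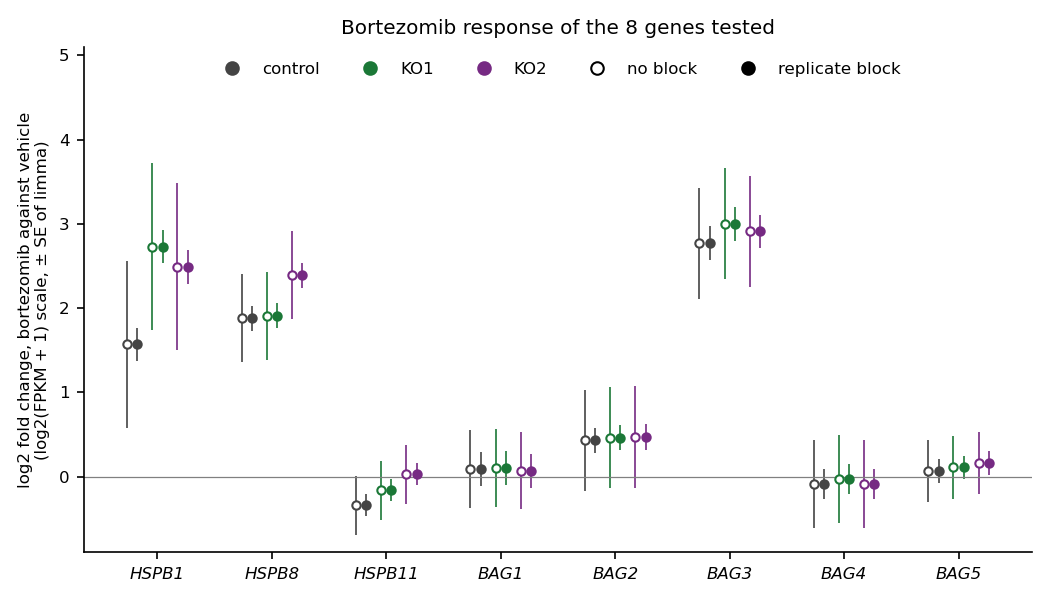
Change from vehicle to bortezomib (y axis, log2 fold change of FPKM + 1, ± SE of limma) for the 8 tested genes along the x axis, in the control line, KO1 and KO2. Open points are the fit without the block and filled points the fit with it. HSPB1, HSPB8 and BAG3 lie between 1.57 and 3.00 in all 3 lines, and the SE is smaller with the block.

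Line by line, the fit without the block called 0 of 8 members in the control line (0.23% of all genes called higher), 0 of 8 in KO1 (0.156%) and 0 of 8 in KO2 (0.172%). At an unadjusted limma p under 0.05 there were 2, 3 and 3 of the 8 members. Beside them stood 1498, 1153 and 1169 of the 12194 genes, in either direction. With the block the control line had 3 of 8 members higher (16.1% of all genes). KO1 had 4 of 8 higher (13.9%), as did KO2 (12.7%). BAG3 rose by 2.77, 3.00 and 2.91 (log2) in the control line, KO1 and KO2, with adjusted p of 7.55e-05, 4.09e-05 and 4.78e-05 in the blocked limma fit. HSPB8 rose by 1.88, 1.91 and 2.39 (9.73e-05, 0.000104 and 3.26e-05), and HSPB1 by 1.57, 2.73 and 2.49 (0.000672, 7.4e-05 and 9.9e-05). BAG2 lay close to the threshold, at 0.43, 0.46 and 0.47 with blocked limma adjusted p of 0.0517, 0.045 and 0.0442. When 1 library was left out, the blocked call of BAG2 was lost in 11 of 12 fits in KO1 and in 8 of 12 in KO2.

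Shares among the listed genes of each family shifted with the rises. BAG3 held 56.6 to 63.3% of the summed FPKM of the 5 BAG genes under vehicle (median 60.8%) and 88.8 to 92.7% under bortezomib (median 91.6%), and the 2 ranges did not overlap in either suffix class (exact two-sided permutation test, 6 against 6 libraries, p = 0.00216, adjusted 0.00541). BAG6, a further BAG gene, is not in that sum. It measured 23.6 to 40.0 FPKM under vehicle, where BAG3 measured 25.1 to 61.7, and 18.5 to 33.2 FPKM under bortezomib. With BAG6 in the sum each BAG3 share would be lower, and that share was not tested. HSPB1 held a median of 94.5% of the summed FPKM of HSPB1, CRYAB, HSPB8 and HSPB11 under vehicle and 97.2% under bortezomib (exact permutation p = 0.0433, adjusted 0.0703). HSPB11, which only carries the family name and was not called with bortezomib, is in that sum. The share among HSPB1, CRYAB and HSPB8 alone was not tested and need not rise. HSPB8 rose by larger ratios than HSPB1 in the control line (4.9 and 6.55 against 3.29 and 2.71) and KO2 (7.64 and 8.21 against 4.58 and 6.97), not in KO1. The ratio of HSPB1 to BAG3 had a median of 2.41 under vehicle and 1.79 under bortezomib (exact permutation p = 0.0563, adjusted 0.0703). The ratio of BAG3 to HSPB8, the partners of 1 complex, had a median of 23.5 under vehicle and 29.1 under bortezomib (exact permutation p = 0.167, also after adjustment). Of these 4 measures, the BAG3 share alone passed 0.05 after adjustment in the unpaired test. Paired by line and suffix class, the BAG3 share and the HSPB1 share (with HSPB11 in its sum) were higher under bortezomib in 6 of 6 pairs. The ratio of HSPB1 to BAG3 was lower in 6 of 6. Each of the 3 gave p = 0.0312 in an exact two-sided paired permutation test, the smallest that 6 pairs allow, or 0.0391 adjusted over the same 5 measures. The ratio of BAG3 to HSPB8 was higher in 3 of 6 pairs (exact paired permutation p = 0.25).

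**Figure D3:**
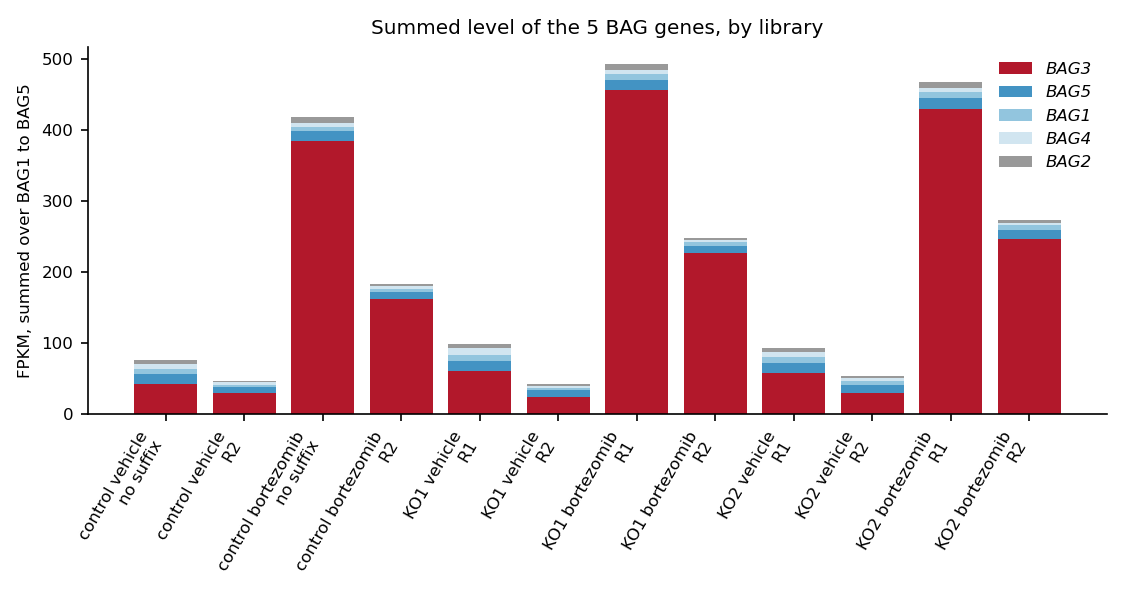
FPKM of BAG1 to BAG5 stacked (y axis, from 0) in each of the 12 libraries (x axis). BAG3 makes up 88.8 to 92.7% of each bortezomib bar, while the other 4 segments together reach 33.2 to 38.1 FPKM in the R1-class bars and 17.1 to 26.9 FPKM in the R2 bars.

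The second question was whether these genes differed between the NFE2L1 knockout lines and the control line. Each such comparison, under vehicle or bortezomib, used the same control line, so its p-value holds no spread among control lines. Whether a difference came from the loss of NFE2L1 or from a trait of that control line was not tested. Under vehicle 0 of 8 members were called in the mean of both knockouts against the control line, either without the block (0.172% of all genes called higher) or with it (3.42%). Before adjustment 0 members passed 0.05 in limma without the block, beside 561 of the 12194 genes. With the block 1 of 8 passed, beside 2644 genes, which is below the share over all genes. That member was HSPB8 at 0.37 (log2), with a limma adjusted p of 0.205, and it is named after its value was seen. Without the block the changes ran from 0.04 for BAG2 (-0.05 under quantile normalization) to 0.28 for BAG1, with limma adjusted p of 1 for each. BAG3 differed by 0.18 ± 0.57 and HSPB1 by 0.12 ± 0.85 (log2, SE).

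Under bortezomib the fit without the block again called 0 of 8 (0.0738% of all genes called higher). It had 0 members at an unadjusted limma p under 0.05, beside 697 of all genes. The fit with the block called 2 of 8, HSPB1 and HSPB8 (3.9%). HSPB1 stood at 891 and 1018 FPKM in the knockout R1-class libraries against 571 in the control, and at 382 and 472 in the R2 libraries against 139. Both knockouts were thus above the control within each suffix class, by 1.56 and 1.78 times in the R1 class and by 2.74 and 3.39 times in R2. The mean difference was 1.17 ± 0.85 (log2, SE; limma adjusted p 1) without the block and 1.39 ± 0.21 (0.00625) with it. Since no suffix occurs only in the control line and R1 only in the knockouts, the block also estimates the offset between those suffixes. The level of knockouts minus control, averaged over the treatments, then rests on the R2 libraries alone, where the HSPB1 gap under bortezomib was the larger. That holds for each gene compared between knockouts and control with this block, though not for the interaction. With no suffix and R1 joined into 1 class the HSPB1 difference was 1.17 (limma adjusted p 0.00422). Without the R2 control library under bortezomib the blocked difference was 1.17 with an adjusted p of 0.171, and in the other 11 fits that left out 1 library the call held.

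HSPB8 was higher in the knockouts under bortezomib by 0.64 ± 0.15 (log2, SE; limma adjusted p 0.0378) with the block. The difference was 0.43 (adjusted p 1) without the block and 0.43 (0.101) with both suffix classes joined, and the blocked call was lost in 10 of 12 fits that left out 1 library. BAG3 differed by 0.37 without the block (adjusted p 1) and 0.31 with it (0.401).

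Whether the bortezomib response itself differed between knockouts and control was tested as an interaction. Neither fit called any of the 12194 genes (0% higher), so 0 of 8 members were called; 115 genes without the block and 1305 with it had an unadjusted p under 0.05 in limma. Of the 8 tested members HSPB1 had the largest value, at rank 69 of all genes. It was 1.04 ± 1.21 (log2, SE; limma adjusted p 1) without the block and 1.04 ± 0.24 (limma adjusted p 0.169, unadjusted 0.00182) with it. With the block 1 of 8 members passed 0.05 before adjustment, which is near the share over all genes. That member was HSPB1, named after its value was seen. Fitting the whole reads recovered from the FPKM with limma-voom and the block gave 1.04 with an adjusted p of 0.0291, the only setting tried in which it passed with all libraries. Within suffix classes the extra rise of HSPB1 was 0.75 and 0.48 for KO1 and KO2 in the R1 class, and 1.59 and 1.36 in R2, where 0 would mean no extra rise; KO1 and KO2 share the control libraries of each class. BAG3 gave -0.26 and -0.26 in the R1 class and 0.72 and 0.56 in R2, opposite in sign, with a mean of 0.19. HSPB8 gave 0.27 (adjusted p 0.641 with the block).

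**Figure D4:**
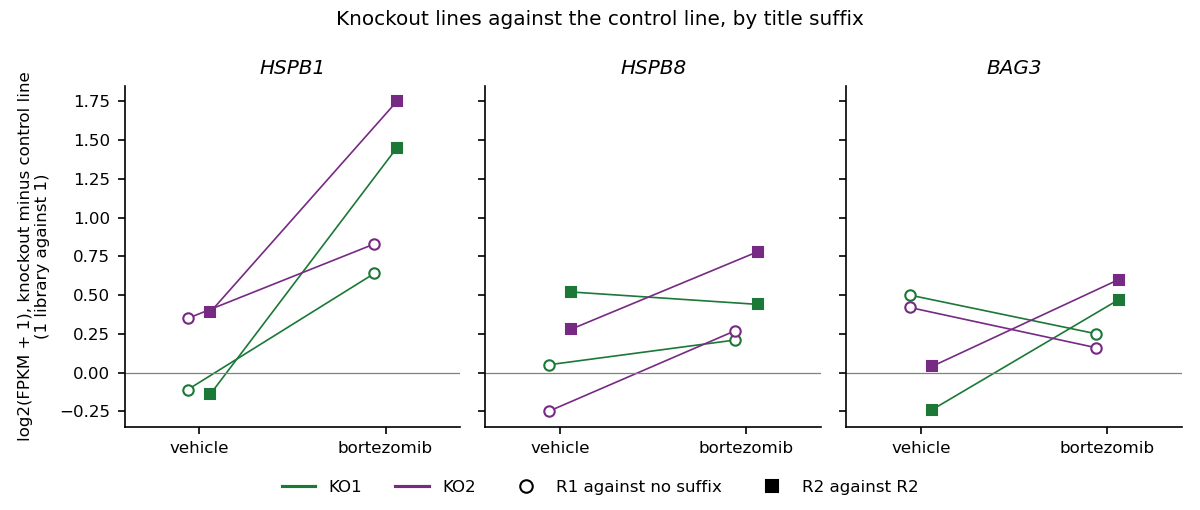
Knockout minus control line in log2(FPKM + 1) (y axis), under vehicle and bortezomib (x axis), for HSPB1, HSPB8 and BAG3, each point 1 library against 1 of the same suffix class. For HSPB1 the values lie between -0.14 and 0.39 under vehicle and between 0.64 and 1.75 under bortezomib, and the BAG3 lines slope down in the R1 class and up in R2.

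KO1 and KO2 were compared under vehicle to see how like the lines were. In that contrast 0 of 8 members were called without the block (0.0164% of all genes called higher) or with it (1.41%). At an unadjusted limma p under 0.05 there were 0 members without the block, beside 286 of the 12194 genes. With the block there was 1 member, beside 1765 genes. HSPB1 was lower in KO1 by -0.50 (log2; limma adjusted p 1, or 0.276 with the block).

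Genes of a like pattern were found by Pearson's r of log2(FPKM + 1) over the 12 libraries, for the 3 tested members whose group means spanned at least 1 log2 unit; CRYAB, which did not pass the filter, was left out. BAG3 had high values with DNAJB1 (0.998), the HSP40 that delivers clients to HSP70, and with HSPH1 (0.991), an HSP110. HSPB8 had high values with the HSP90 co-chaperone gene CHORDC1 (0.988) and with TRIB3 (0.986), a stress-induced pseudokinase. HSPB1 was closest to TPD52L2 (0.989), the aminotransferase gene GOT1 (0.987) and JMJD6 (0.986). These values describe 12 libraries that share the treatment and the suffix classes.

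Related genes were followed from lists, averaged over the lines. Of all tested genes 4.85% were higher and 6.76% lower in that contrast without the block, and 27% and 27.9% with it, and the counts below are read beside these shares. Of 18 chaperone genes known to respond to HSF1, 13 were higher and 0 lower without the block, and 18 and 0 with it, with a median of 1.72 (log2). HSPA6, an inducible HSP70, rose by 7.79 (limma adjusted p 5.36e-08), HSPA1B by 4.59 and HSPA1A by 4.54; the last pair are near-identical copies whose reads may be split. In the knockouts under bortezomib 1 of the 18 was called, with the block only: FKBP4, an HSP90 co-chaperone, at 1.08 (limma adjusted p 0.00764). That share is near the 3.9% of all genes called higher there. Of the 4 genes of heat shock factors and their inhibitor HSBP1, HSF1 passed without the block at 0.70 (limma adjusted p 0.0486), and HSF1 and HSF2 (0.71) with it.

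Of 11 tested partners of BAG3 and HSPB8 in selective autophagy, 1 was higher and 1 lower without the block, and 7 and 2 with it, with a median of 0.56 (log2). Except for the 7 higher with the block, these counts lie within 1 gene of the shares over all genes or below them. GABARAPL1, an ATG8 protein of the autophagosome membrane, rose by 2.52 (limma adjusted p 0.00189), while MAP1LC3B changed by 1.48 (0.063, or 6.13e-06 with the block). Of 6 tested clients and partners of the other BAG proteins, 0 were higher and 1 lower without the block, and 0 and 3 with it. TNFRSF1A, the receptor that BAG4 binds, fell by 1.51 (adjusted p 0.028), and the glucocorticoid receptor gene NR3C1, a BAG1 client, changed by -0.72 (0.091, or 0.000298 with the block). Among 16 genes of the complex that holds HSPB11, 0 were higher and 1 lower without the block (TTC30B, -0.75, limma adjusted p 0.0275), and 3 and 5 with it, near the shares over all genes, with a median of 0.00. Of 8 further small heat shock and BAG genes only BAG6 was tested, at -0.30 (limma adjusted p 0.497, or 0.0169 with the block), and CRYAA, HSPB2, HSPB3 and ODF1 were listed at 0.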

How the data were processed

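RNA of 12 A549 libraries was measured in 6 groups of 2. The authors deposited 1 table of FPKM per gene; per the submitters' processing notes CASAVA, STAR 2.5, HTSeq 0.6.1 and DESeq2 were used with hg19. The table's coordinates nevertheless match GENCODE 29 (GRCh38) for 95.2% of gene identifiers, and strand use is not given in the sources used here. When FPKM was turned back into reads, 100% of values were whole within 0.01 read, which gave the depth; voom on these reads called 1419 genes in the mean of lines, against 1415 in the fit on FPKM.

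Computed here: limma 3.58.1 (R 4.3.3) with a trend on log2(FPKM + 1), genes with mean FPKM of at least 1, group means, Benjamini-Hochberg over 12194 genes, called under 0.05; exact permutation tests in scipy 1.17.1. Scripts were tested on simulated data. Suffix numbers pair the libraries: differences of R2 from its partner correlated over genes at 0.696 to 0.89 (median 0.811) in all 15 pairs of groups, so blocked values are given. Members and lists were chosen with earlier results of these data known. All 9 members were named, as were the 3 most correlated genes (1 gene is not reported here) and the 3 listed genes with the largest changes. Of the listed genes 1 was not found by name. Alternatives were a pseudocount of 0.1, no filter, quantile normalization, no mitochondrial genes, voom on recovered reads, blocks of 3 and 2 levels, leaving out each library, and a paired exact test of the shares.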

Additional observations from a re-analysis of the deposited data

How the results depend on the processing

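The blocked fits of bortezomib in single lines called 3 members in the control line, or 4 with the suffix in 2 levels or with voom, and 4 in KO1 and in KO2 under each block. Beside these, 3952, 3968 and 4624 of the 12194 genes were called in the control line, and 3291 to 4019 in KO1 and KO2. Quantile normalization without the block called 1 member, BAG3, in the control line (142 of all genes) and 1, BAG3, in KO2 (112 of all genes). For the knockouts under bortezomib the 3-level block called 2 members, the 2-level block 1 and voom with the block 2. Beside these, 934, 1550 and 1517 of the 12194 genes were called, so 1 of 8 with the 2-level block is near the share over all genes. For the interaction voom with the block called 1 member, beside 113 genes. Leaving out each library in turn gave 0 members in single lines without the block and 3 to 4 with it, 2 to 3 and 4 in the mean of lines, and 0 and 0 to 2 for the knockouts under bortezomib. Besides these, the block changed the call of BAG2 in the mean of lines and of no other member. Without the filter CRYAB was called in the mean of lines (1.01, limma adjusted p 0.0104) and HSPB1 was not. The pseudocount of 0.1 and leaving out mitochondrial genes changed no call of a member.

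All genes called rose with the 3-level block from 57 to 3952 in the control line, 29 to 3378 in KO1, 39 to 3297 in KO2, 1415 to 6690 in the mean of lines, 42 to 754 and 20 to 934 for the knockouts under vehicle and bortezomib, and 8 to 366 for KO1 against KO2; in the same order, the other settings with all 12 libraries and no block gave 41 to 142, 27 to 64, 26 to 112, 1389 to 1712, 26 to 53, 7 to 97 and 3 to 42. Leaving out each library gave 4 to 30, 5 to 26, 5 to 34, 693 to 1162, 2 to 22, 1 to 19 and 1 to 9 without the block, and 1749 to 4360, 1322 to 3444, 1136 to 3621, 5737 to 6633, 40 to 771, 95 to 1229 and 55 to 340 with it. For the interaction, 0 genes were called, against 7 without the filter, 113 with voom and the block, and 0 to 2 when 1 library was left out with the block. The paired test of the family shares, ratios and CRYAB was chosen after seeing the data.

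Values whose sign turned did not pass the test without the block. Over the fits that left out 1 library, the mean bortezomib change (log2) ran from -0.10 to 0.27 for BAG1 and from -0.29 to 0.14 for BAG4. BAG2 ran from -0.10 to 0.96 in the control line, from -0.19 to 1.11 in KO1 and from -0.02 to 0.96 in KO2. For the knockouts under vehicle the ranges were -0.74 to 0.99 for HSPB1, -0.36 to 0.67 for HSPB8, -0.14 to 0.66 for BAG3, -0.18 to 0.74 for BAG1 and -0.48 to 0.57 for BAG2, which was -0.05 under quantile normalization. Under bortezomib they were -0.16 to 1.01 for HSPB8 and -0.25 to 0.99 for BAG3. The interaction ran from -0.31 to 0.86 for HSPB8 and from -0.43 to 0.81 for BAG3, and KO1 against KO2 from -1.38 to 0.39 for HSPB1. The cause was not tested. With 2 libraries a group, a lone library was taken to vary like the other groups, and changes of the size of BAG2 cannot be told from the spread without the block; CRYAB is limited by 0 to 12 reads per vehicle library.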
